A study of Mus musculus with 4 samples.

Results

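Among the genes of mouse C3H10T1/2 cells that encode semaphorins, plexins, neuropilins, ephrins and Eph receptors, the largest differences after 6 hours of BMP3 were found in a ligand and its receptor. The transcript of Sema7a, a membrane-anchored semaphorin, had 3.84-fold higher values in BMP3 arrays, and that of its receptor Plxnc1 had 4.04-fold lower values. The secreted semaphorins Sema3a and Sema3c, the neuropilin Nrp2 and the Eph receptor Epha7 also had lower values in BMP3 arrays, by 1.5-fold to 2.01-fold. None of these differences passed the adjusted threshold of the test across all probe sets, so they are given as values with their errors.

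The members were all genes whose symbol in the platform annotation begins with Sema and a class number, Plxna to Plxnd, Epha, Ephb, Efna or Efnb, together with Nrp1 and Nrp2. A gene was represented by its brightest probe set that carries that symbol alone. This gave 53 genes of 18193, with 124 probe sets of 45037. One of them, Plxna4os1, is an antisense RNA gene at the Plxna4 locus and encodes no plexin. Ephb2 was not analysed here. The samples were 2 cultures of C3H10T1/2 cells given recombinant human BMP3 at 100 ng/ml for 6 hours and 2 untreated cultures, named as biological replicates in the labels. C3H10T1/2 is an established line of mouse embryo origin that the labels call mesenchymal stem cells. BMP3, bone morphogenetic protein 3, is a secreted ligand related to TGF-beta. Total RNA was hybridised to 4 Affymetrix 3' expression arrays, and values are given on the log2 scale of the deposited table. The comparison addressed which transcripts differ after BMP3.

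Semaphorins are secreted or membrane-bound ligands that act through plexins, receptors that control integrins and the cytoskeleton through small GTPases. Class 3 semaphorins are secreted and mostly bind a neuropilin, which then signals through a plexin of class A or D. Ephrins are ligands held in the membrane of one cell that activate Eph receptor tyrosine kinases on a neighbouring cell, and B-class ephrins also signal into the cell that carries them. Both systems are known from axon guidance, and in the skeleton from traffic between osteoblasts and osteoclasts, where Sema3a, ephrin-B2 and EphB4 have described roles.

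The arrays were of similar overall level, with medians of 3.36 and 3.31 in BMP3 and 3.35 and 3.4 in control arrays. A value of 6 was reached by 37.7% to 38.6% of the probe sets on an array. Of 14 measured mesenchymal markers, 13 averaged 6 or more. The log2 of their summed level was 18.55 and 18.47 in BMP3 and 18.54 and 18.51 in control arrays. Of other markers, 2 of 11 neuronal, 1 of 10 endothelial, 1 of 7 epithelial and 0 of 6 leukocyte genes reached that level. They were the neuronal Stmn2 at 11.66 and Map2 at 10.67, the endothelial Egfl7 at 7.21 and the epithelial Epcam at 9.51. The brightest of the dimmer ones were Syp at 5.72, Csf1r at 4.69 and Tubb3 at 4.43, while Rbfox3, Pecam1, Cdh5 and Ptprc averaged under 3. The log2 of the summed neuronal level was 12.24 and 12.29 in BMP3 and 12.31 and 12.38 in control arrays. That of the endothelial level was 7.59 and 7.36 in BMP3 and 7.65 and 7.59 in control arrays. For the epithelial markers it was 9.70 and 9.56 in BMP3 and 9.46 and 9.63 in control arrays. For the leukocyte markers it was 6.01 and 6.19 in BMP3 and 5.98 and 5.97 in control arrays. The neuronal marker Map2 had 10.35 and 10.21 in BMP3 arrays, against 11.01 and 11.12 in control arrays, a difference of -0.79. Stmn2, the other neuronal marker averaging 6 or more, had a difference of 0.26. The mesenchymal markers Thy1 and Cd44 were higher in both BMP3 arrays, by 0.73 and 0.64. Of the 13 mesenchymal markers averaging 6 or more, 6 had positive and 7 had negative differences, with Pdgfra at -0.73. Map2, Thy1 and Cd44 had an unadjusted p under 0.05 and at least a 1.5-fold difference, and their part in the results was not tested. The poly-A spike-ins, which are added to the RNA and are not cell transcripts, averaged 6.46 and 6.50 in BMP3 and 7.76 and 6.89 in control arrays, and 18S ribosomal RNA 8.99 and 9.90 in BMP3 and 11.41 and 10.50 in control arrays. Their part in the differences below was not tested.

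Over the 4 arrays, 30 of the 53 members had a mean log2 value of at least 6, and these are described with their values. The other 23 averaged 1.85 to 5.07, where a difference in transcript level could not be measured well, and their differences ran from -0.05 to 0.34. These were Sema3e, Sema3g, Sema4a, Sema4d, Sema4f, Sema4g, Sema5b, Sema6a, Sema6b, Sema6c, Plxna4, Plxna4os1, Plxnb1, Efna3, Efnb3, Epha1, Epha3, Epha4, Epha5, Epha6, Epha8, Epha10 and Ephb1.

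By limma's test over all 45037 probe sets, 0 members passed a Benjamini-Hochberg adjusted p of 0.05, as did 0% of all genes. The smallest adjusted p of a member was 0.299. An unadjusted p under 0.05 was counted for 4 members with higher and 5 with lower values in BMP3 arrays, against 5.28% and 4.52% of all genes. A looser threshold took an unadjusted p under 0.05 together with a fold of at least 1.5. By it, 1 member was higher (1.89% of 53, against 1.18% of all genes) and 5 were lower (9.43% of 53, against 1.65% of all genes). All 6 averaged 6 or more. Of the 30 members at that level, 3.33% were past the looser threshold with higher and 16.7% with lower values. Of all genes at that level, 2% were past it with higher and 2.83% with lower values. Both BMP3 arrays lay above both control arrays for 7 members (13.2%, against 16.7% of all genes) and below both for 11 (20.8%, against 20.6%), shares near those of all genes. The median difference of BMP3 minus control was -0.01 over the 53 members and -0.01 over all genes. Over members and genes averaging 6 or more, it was -0.06 and 0.02. The count past the looser threshold depended on single arrays. Leaving out either control array gave 2 higher and 2 lower, leaving out BMP3 replicate 1 gave 1 higher and 4 lower, and leaving out BMP3 replicate 2 gave 3 higher and 1 lower. Sema7a was past it in each of these fits.

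**Figure D1:**
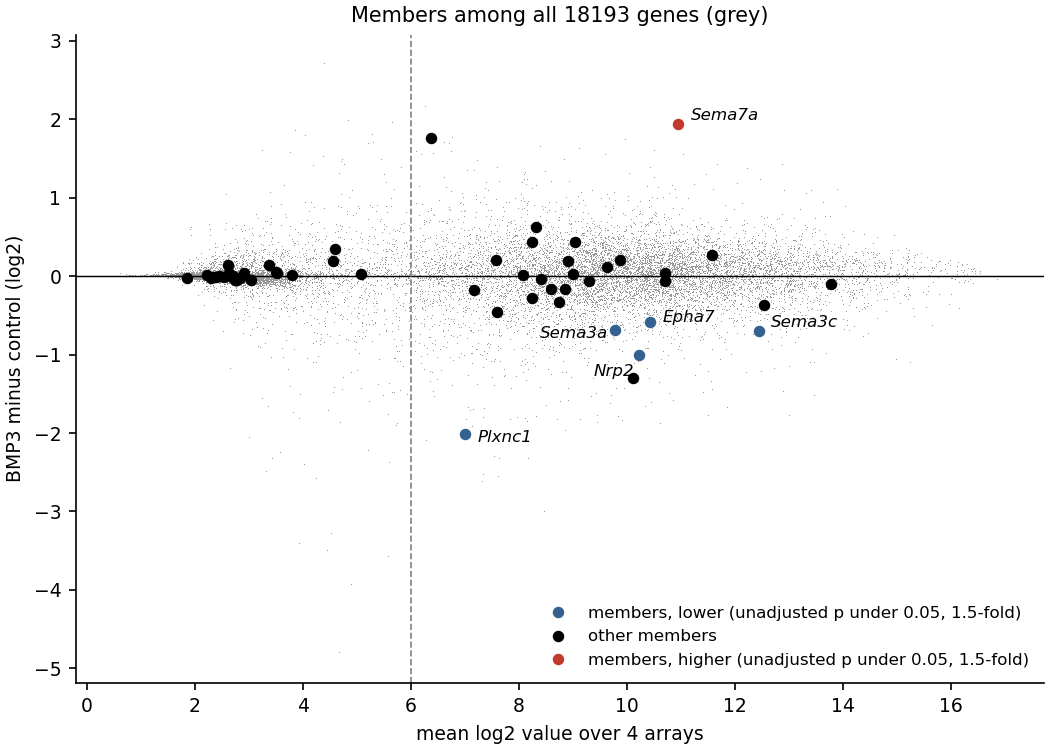
BMP3 minus control difference (log2, vertical axis) against the mean log2 value over 4 arrays (horizontal axis) for all 18193 genes in grey and the 53 members as larger points. Sema7a at 1.94 and Plxnc1 at -2.01 lie farthest out among the members past the looser threshold, the unlabelled point at 1.76 near a level of 6 is Sema6d and that at -1.30 is Sema3d, neither of them past it, and the 23 members left of the dashed line at 6 lie close to 0.

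Sema7a encodes a semaphorin that is held at the membrane by a lipid anchor and binds plexin C1 and integrins. Its probe set 1459903_at had log2 values of 12.14 and 11.71 in BMP3 arrays, against 10.21 and 9.76 in control arrays. Both BMP3 arrays thus lay well above both control arrays, and replicate 1 was the higher one in each group. The difference was 1.94 (standard error 0.25, 95% confidence interval 1.16 to 2.72, limma adjusted p = 0.299, n = 2 arrays each). It ran from 1.71 to 2.17 with 1 array left out. The other Sema7a probe set stayed at 2.33 to 2.93 on all arrays, so the difference rests on 1 probe set. In cultured cells measured as a whole, more of a transcript per cell and more cells that hold it cannot be told apart.

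Plxnc1 encodes plexin C1, the plexin that binds Sema7a. Its brightest probe set, 1423213_at, had 6.40 and 5.58 in BMP3 arrays, against 8.41 and 7.61 in control arrays. The groups did not overlap, and the values in BMP3 arrays lay near the level under which members were set aside as dim. The difference was -2.01 (standard error 0.46, 95% confidence interval -3.42 to -0.61, limma adjusted p = 0.441). With 1 array left out it ran from -2.42 to -1.60. A second Plxnc1 probe set had 4.92 and 3.34 in BMP3 arrays, against 7.13 and 5.45 in control arrays, a difference of -2.16 with a standard error of 0.92. The remaining 4 averaged 2.03 to 2.63 with differences of -0.05 to -0.01. The receptor and its ligand thus had differences of opposite sign.

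**Figure D2:**
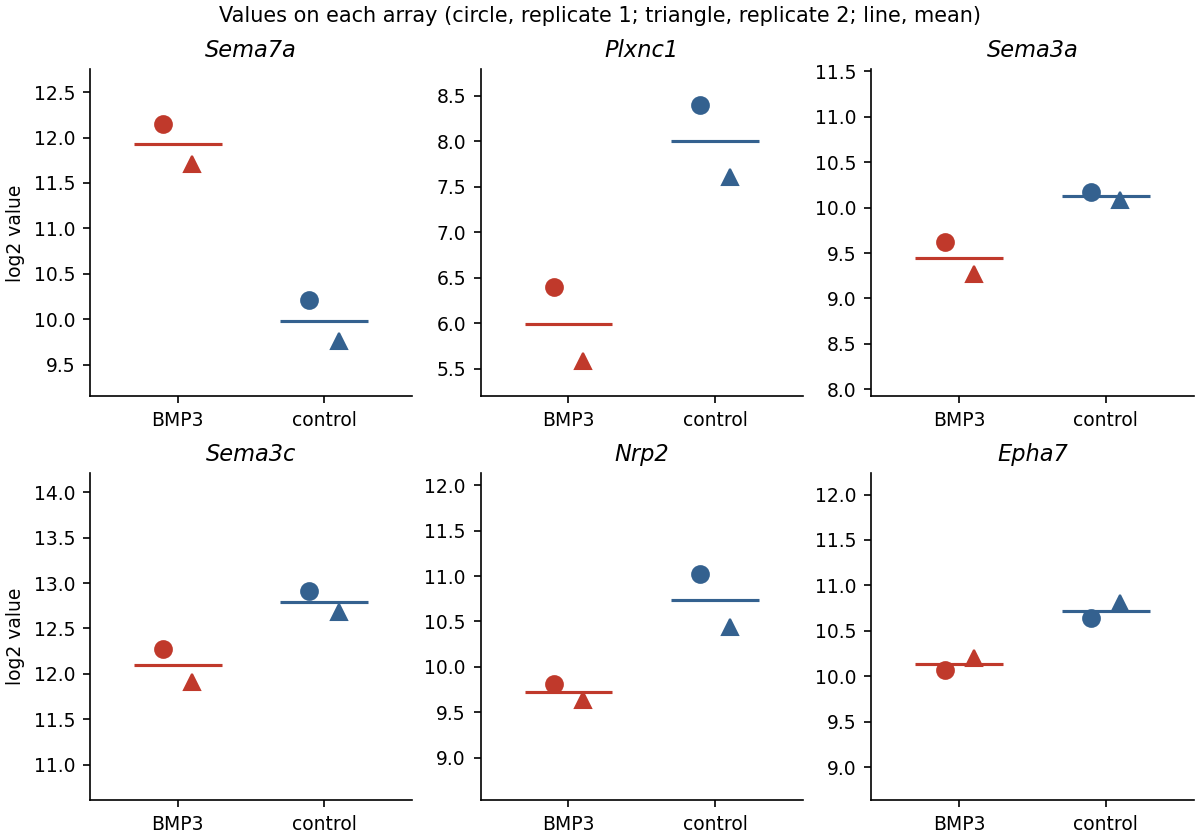
Log2 values of the 6 members past the looser threshold on each array, BMP3 left and control right in each panel, with circles for replicate 1, triangles for replicate 2 and lines for group means; each panel spans the same range. In all 6 panels the BMP3 points lie clear of the control points, above them for Sema7a and below them for Plxnc1, Sema3a, Sema3c, Nrp2 and Epha7.

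Among class 3 semaphorins, 5 of 7 averaged 6 or more. Of these 5, 4 had negative differences, as did 4286 of the 9185 genes at that level. The median of the 5 was -0.68, against 0.02 over all genes at that level. Sema3a, a repellent of growing axons that osteoblasts also make, had 9.62 and 9.27 in BMP3 arrays, against 10.17 and 10.09 in control arrays (probe set 1420416_at). Its difference was -0.68 (standard error 0.14, limma adjusted p = 0.413). Its 2 other probe sets gave -1.22 and -0.67, and the groups did not overlap in any of the 3. Sema3c, which attracts neural crest cells in heart development, had 12.28 and 11.91 in BMP3 arrays, against 12.91 and 12.68 in control arrays (probe set 1429348_at). That difference was -0.70 (standard error 0.17, limma adjusted p = 0.479), and its second probe set gave -0.83. With 1 array left out, Sema3a ran from -0.85 to -0.51 and Sema3c from -0.88 to -0.52. The groups did not overlap for either gene, so leaving out 1 array could not turn their direction.

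Sema3d had 10.01 and 8.93 in BMP3 arrays, against 11.00 and 10.54 in control arrays. The groups did not overlap, but the BMP3 arrays lay 1.08 apart, and the difference was -1.30 (standard error 0.47, limma adjusted p = 0.648, unadjusted p = 0.065). Leaving out BMP3 replicate 2 gave -0.75, and leaving out BMP3 replicate 1 gave -1.84. Sema3b, a class member first known as a candidate tumour suppressor, had 7.36 and 6.80 in BMP3 arrays, against 7.5 and 7.02 in control arrays, with overlapping groups. Its difference of -0.18 turned to 0.06 without control replicate 1 and to 0.10 without BMP3 replicate 2. Sema3f, a ligand of neuropilin 2, had 8.11 and 8.07 in BMP3 arrays, against 8.10 and 8.06 in control arrays. Its probe set is of a type whose probes can match other transcripts, and a second one gave -0.32. The 3 genes with the most negative differences of this class are neighbours. In RefSeq's GRCm38.p6 annotation Sema3d, Sema3a and Sema3c lie in that order, with the dim Sema3e between the last 2, within 5.35 Mb of chromosome 5, while Sema3b and Sema3f are on chromosome 9. This arrangement was looked up after the values were seen.

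The promoter windows of 4 members are shown because they belong to the ligand and receptor of opposite sign, and to a secreted semaphorin and a neuropilin that both had lower values. They run from 250 bases before to 50 after an annotated transcript start, are taken from RefSeq (GRCm38.p6) and read 5′ to 3′ on the gene's strand. Capitals mark the SMAD-binding letters AGAC or GTCT on either strand and the GC-rich SMAD letters GGCGCC. The windows lie at chr9:57939862-57940161 (plus strand), chr10:94944796-94945095 (minus strand), chr5:17574566-17574865 (plus strand) and chr1:62703067-62703366 (plus strand). The start used is that of the whole gene for Sema3c and Nrp2, and lies 516 bases inside the gene for Sema7a and 170 for Plxnc1.
Sema7a: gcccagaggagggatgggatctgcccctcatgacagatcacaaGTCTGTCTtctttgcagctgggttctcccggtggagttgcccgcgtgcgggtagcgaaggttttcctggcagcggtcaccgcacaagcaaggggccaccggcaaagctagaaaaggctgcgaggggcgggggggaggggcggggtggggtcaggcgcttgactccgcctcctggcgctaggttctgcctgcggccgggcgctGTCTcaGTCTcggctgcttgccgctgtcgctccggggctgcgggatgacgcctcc
Plxnc1: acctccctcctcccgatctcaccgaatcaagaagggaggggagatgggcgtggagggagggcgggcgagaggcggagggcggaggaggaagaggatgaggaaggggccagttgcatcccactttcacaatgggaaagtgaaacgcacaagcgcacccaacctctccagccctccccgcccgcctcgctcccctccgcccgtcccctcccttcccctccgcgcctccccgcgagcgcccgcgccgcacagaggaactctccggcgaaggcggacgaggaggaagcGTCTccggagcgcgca
Sema3c: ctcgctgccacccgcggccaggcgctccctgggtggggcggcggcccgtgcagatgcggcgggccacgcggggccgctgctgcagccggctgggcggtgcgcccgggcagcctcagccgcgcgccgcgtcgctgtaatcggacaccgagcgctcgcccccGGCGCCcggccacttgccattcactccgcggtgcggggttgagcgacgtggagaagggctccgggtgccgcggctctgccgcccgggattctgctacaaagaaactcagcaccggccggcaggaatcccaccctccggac
Nrp2: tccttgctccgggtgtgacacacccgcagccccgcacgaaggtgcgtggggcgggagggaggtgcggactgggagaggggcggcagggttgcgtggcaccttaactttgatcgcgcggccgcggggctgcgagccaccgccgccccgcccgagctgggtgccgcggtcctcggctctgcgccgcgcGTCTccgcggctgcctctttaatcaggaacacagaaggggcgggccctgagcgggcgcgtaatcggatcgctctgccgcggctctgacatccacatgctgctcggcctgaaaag
AGAC or GTCT occurred 4 times in the Sema7a window, 1 time each in those of Plxnc1 and Nrp2 and 0 times in that of Sema3c, which held GGCGCC 1 time. For each gene in the RefSeq table, the window of lowest coordinate was taken. Of 46 members with a window there, 89.1% held AGAC or GTCT, against 88.1% of all 27025 genes of that table. GGCGCC was held by 26.1% of these members, against 11.8%, and by 1 of the 6 members past the looser threshold. The members' windows had a median GC content of 64.5%, against 52.7% over the same 27025 genes. The 4 windows shown had 67.3% (Sema7a), 69.0% (Plxnc1), 75.7% (Sema3c) and 70.7% (Nrp2). A match of letters is a description and not a binding site.

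The 13 membrane-bound semaphorins had 5 members averaging 6 or more, and the differences of all 5 were positive, as were those of 4899 of the 9185 genes at that level. Sema4b had 8.79 and 8.46 in BMP3 arrays, against 8.28 and 7.72 in control arrays. As for Sema7a, its groups did not overlap, and the difference was 0.63 (standard error 0.26, limma adjusted p = 0.724, unadjusted p = 0.090). Leaving out control replicate 2 gave 0.35, and leaving out control replicate 1 gave 0.91. The other Sema4b probe set averaged 1.74 with a difference of 0.00, so the difference rests on 1 probe set. Sema6d, a ligand of plexin A1 in heart development, had 8.65 and 5.88 in BMP3 arrays, against 5.91 and 5.09 in control arrays. A single array, BMP3 replicate 1, stood high, and the difference of 1.76 with a standard error of 1.15 became 0.37 without it. The other Sema6d probe sets averaged 2.12 to 2.86, with differences of -0.0154 to -0.0007. The brightest Sema5a probe set also showed BMP3 replicate 1 standing apart, with 8.36 and 7.0 in BMP3 arrays, against 7.47 and 7.47 in control arrays. Its difference of 0.21 turned to -0.47 without BMP3 replicate 1. A second Sema5a probe set had 7.55 and 7.39 in BMP3 arrays, against 7.48 and 7.28 in control arrays, a difference of 0.09. Sema4c, a ligand of plexin B2, had 9.34 and 8.70 in BMP3 arrays, against 9.25 and 8.72 in control arrays. Its groups overlapped, and its difference of 0.03 turned to -0.29 without BMP3 replicate 1 and to -0.23 without control replicate 2.

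Of the plexins, 7 averaged 6 or more, with 3 positive and 4 negative differences. Plxnb2, a class B plexin that binds class 4 semaphorins, had 11.78 and 11.65 in BMP3 arrays, against 11.39 and 11.51 in control arrays. The groups did not overlap, and the difference of 0.26 with a standard error of 0.08 was 1.20-fold (limma adjusted p = 0.558, unadjusted p = 0.042). Plxna3, which pairs with neuropilins, had 9.05 and 8.95 in BMP3 arrays, against 8.77 and 8.85 in control arrays, a difference of 0.19 (standard error 0.06, limma adjusted p = 0.586). Its second probe set, averaging 5.91, gave -0.64, so the 2 probe sets differed in sign. Plxna1 had a difference of 0.20 with a standard error of 0.14, Plxna2 one of -0.06 with 0.18 and Plxnb3 one of -0.04 with 0.08. The groups of these 3 overlapped, and the Plxnb3 difference was 0.02 under quantile normalization. Of 4 Plxna2 probe sets averaging 6 or more, 2 gave positive and 2 negative differences, from -0.12 to 0.25. Plxnd1, a receptor of secreted semaphorins in blood vessels, had 8.59 and 7.61 in BMP3 arrays, against 8.95 and 7.81 in control arrays. Here replicate 1 exceeded replicate 2 by 0.99 in BMP3 and by 1.14 in control arrays, and the difference between groups, at -0.28, was smaller than either gap.

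Both neuropilins, the co-receptors of class 3 semaphorins and of vascular endothelial growth factors, averaged 6 or more. Nrp2 had 9.81 and 9.64 in BMP3 arrays, against 11.03 and 10.43 in control arrays (probe set 1435349_at). The groups did not overlap, with a difference of -1.01 and a standard error of 0.25 (95% confidence interval -1.77 to -0.25, limma adjusted p = 0.470). Its 3 other probe sets gave -0.96, -0.54 and -0.78, and in each of them both BMP3 arrays lay below both control arrays. With 1 array left out, the difference of the brightest ran from -1.30 to -0.71. Nrp1 had 13.89 and 13.57 in BMP3 arrays, against 13.81 and 13.84 in control arrays. These groups overlapped, and while the brightest probe set gave -0.09, its 3 other probe sets averaging 6 or more gave 0.21, 0.30 and 0.50. The sign for Nrp1 thus depended on the probe set, which was not so for Nrp2.

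**Figure D3:**
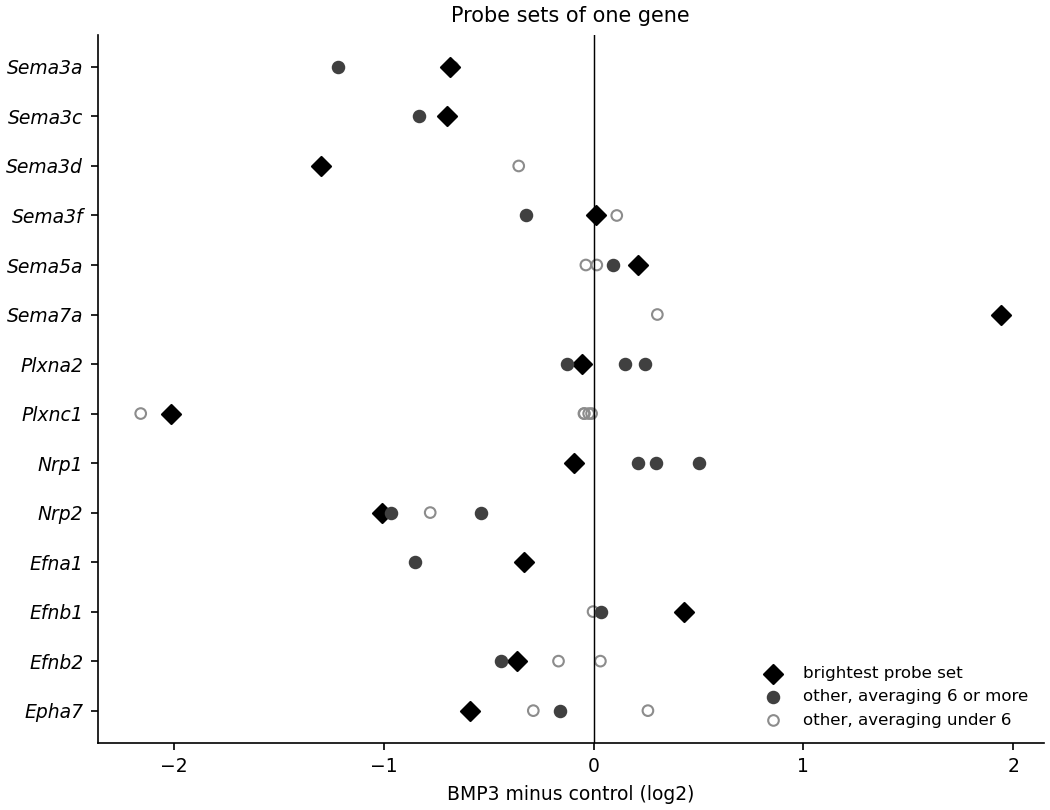
BMP3 minus control differences (log2, horizontal axis) of every probe set of the 11 members with several probe sets averaging 6 or more, and of Sema3d, Sema7a and Plxnc1. Diamonds mark the brightest probe set, filled circles others averaging 6 or more and open circles dimmer ones; those of Sema3a, Sema3c and Nrp2 lie on the negative side, while Nrp1 has its brightest at -0.09 and 3 others at 0.21 to 0.50.

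Among Eph receptors, 5 of 13 averaged 6 or more. Epha7 had 10.07 and 10.20 in BMP3 arrays, against 10.64 and 10.80 in control arrays (probe set 1451991_at). The groups did not overlap, and the difference of -0.59 (standard error 0.09, limma adjusted p = 0.327) was 1.5-fold, at the edge of the looser threshold. A second probe set averaging 8.07 gave -0.16 with overlapping groups, and the remaining 2, averaging 4.38 and 4.05, gave -0.29 and 0.26. Epha2, a receptor of A-class ephrins found in many epithelia and tumours, had 9.33 and 9.18 in BMP3 arrays, against 8.76 and 8.88 in control arrays. The groups did not overlap either, and the difference was 0.43 (standard error 0.08, 95% confidence interval 0.18 to 0.69, limma adjusted p = 0.391, unadjusted p = 0.012), a fold of 1.35. Both EphA receptors that averaged 6 or more therefore had groups that did not overlap, with differences of opposite sign. Of the 9185 genes at that level, groups did not overlap for 2397 with higher and 1995 with lower values.

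Of the EphB receptors, Ephb3 had 8.82 and 8.71 in BMP3 arrays, against 8.91 and 8.96 in control arrays, without overlap, at a difference of -0.17 (standard error 0.06, limma adjusted p = 0.628). Ephb4, the main receptor of ephrin-B2, had 8.76 and 8.28 in BMP3 arrays, against 8.79 and 8.57 in control arrays. Its groups overlapped, and the interval of its difference ran from -0.81 to 0.49. Ephb6, which lacks kinase activity, had 9.93 and 8.60 in BMP3 arrays, against 9.66 and 8.99 in control arrays, and its groups overlapped as well.

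Ephrin transcripts were near the spread of their replicates in most cases. Efna4 had 7.23 and 7.51 in BMP3 arrays, against 7.96 and 7.70 in control arrays, and its groups did not overlap (difference -0.46, standard error 0.16, limma adjusted p = 0.622). Efnb1 had 8.39 and 8.52 in BMP3 arrays, against 7.82 and 8.23 in control arrays, again without overlap, at a difference of 0.43 (standard error 0.17, limma adjusted p = 0.700). A second Efnb1 probe set averaging 6 or more gave 0.04. Efnb2, which encodes ephrin-B2, had 12.12 and 12.60 in BMP3 arrays, against 12.56 and 12.89 in control arrays. Its groups overlapped, its difference was -0.36 with a standard error of 0.23, and a second probe set gave -0.44. Efna1 had a difference of -0.33 with a standard error of 0.26, Efna2 one of 0.12 with 0.20 and Efna5 one of 0.04 with 0.35, all with overlapping groups. A second Efna1 probe set had 6.80 and 7.39 in BMP3 arrays, against 8.34 and 7.55 in control arrays, without overlap, and gave -0.85 with a standard error of 0.39. None of the 6 ephrins that averaged 6 or more passed the looser threshold.

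**Figure D4:**
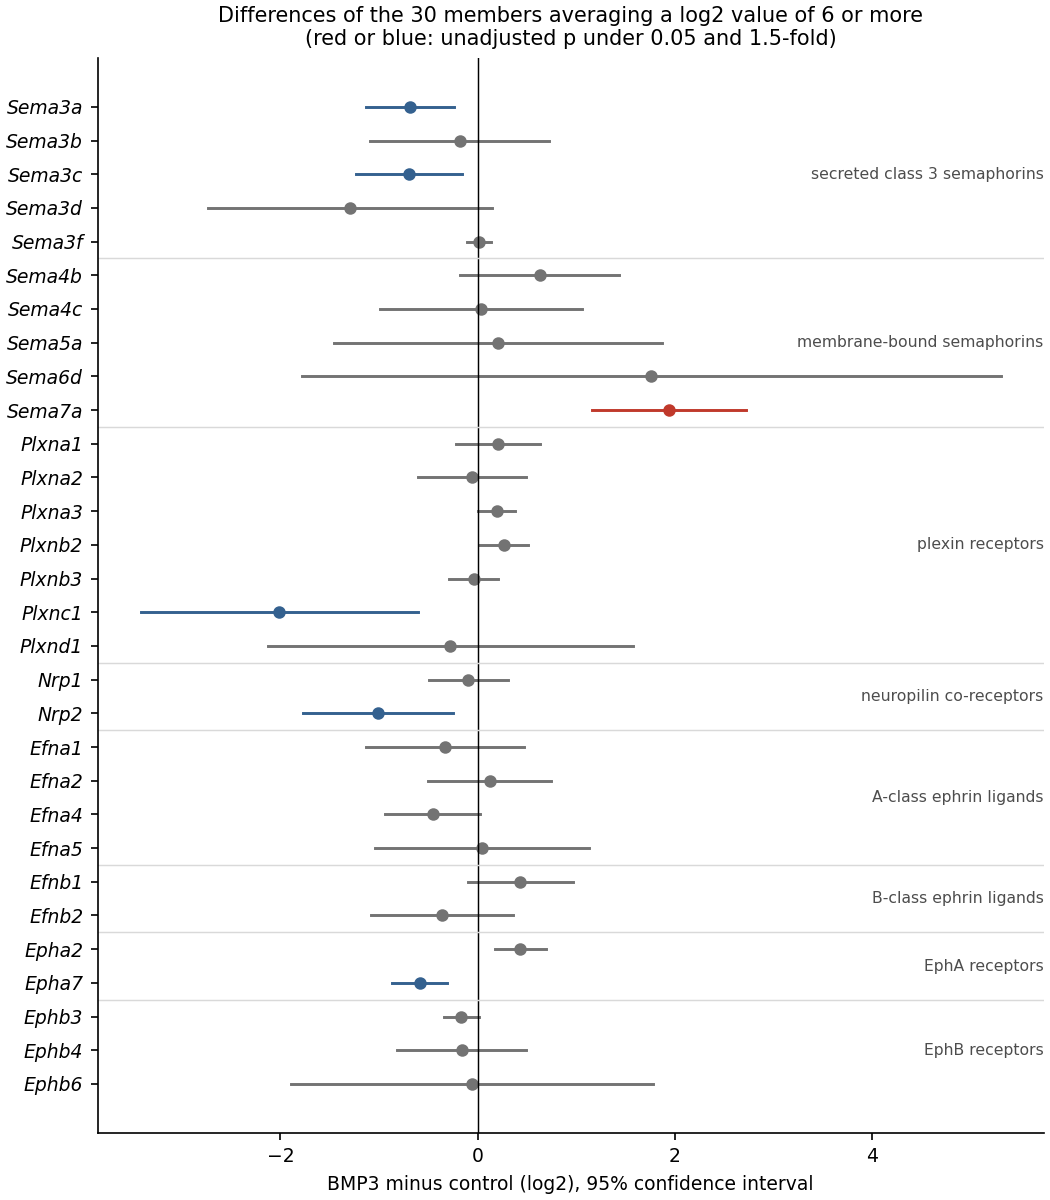
BMP3 minus control differences (log2, horizontal axis) of the 30 members averaging 6 or more, grouped by role, with points for the difference and lines for limma's 95% confidence interval. Red (Sema7a, 1.94) and blue (Plxnc1, Nrp2, Sema3c, Sema3a and Epha7, -2.01 to -0.59) mark the 6 members past the looser threshold, and the widest interval is that of Sema6d.

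The direction of 18 of the 30 members averaging 6 or more was kept whichever array was left out, and that of 12 turned. The 12 were Sema3b, Sema3f, Sema4c, Sema5a, Plxna2, Plxnb3, Plxnd1, Nrp1, Efna2, Efna5, Ephb4 and Ephb6. All 6 members past the looser threshold were among the 18, as were Sema3d, Sema4b, Efnb1, Efnb2 and Epha2. Of these, only Efnb2 had overlapping groups. Where groups do not overlap, leaving out 1 array cannot turn the direction, so for the others this was fixed beforehand. For 21 of the 30 the same replicate number was the higher one in both groups, and in 17 of these it was replicate 1.

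**Figure D5:**
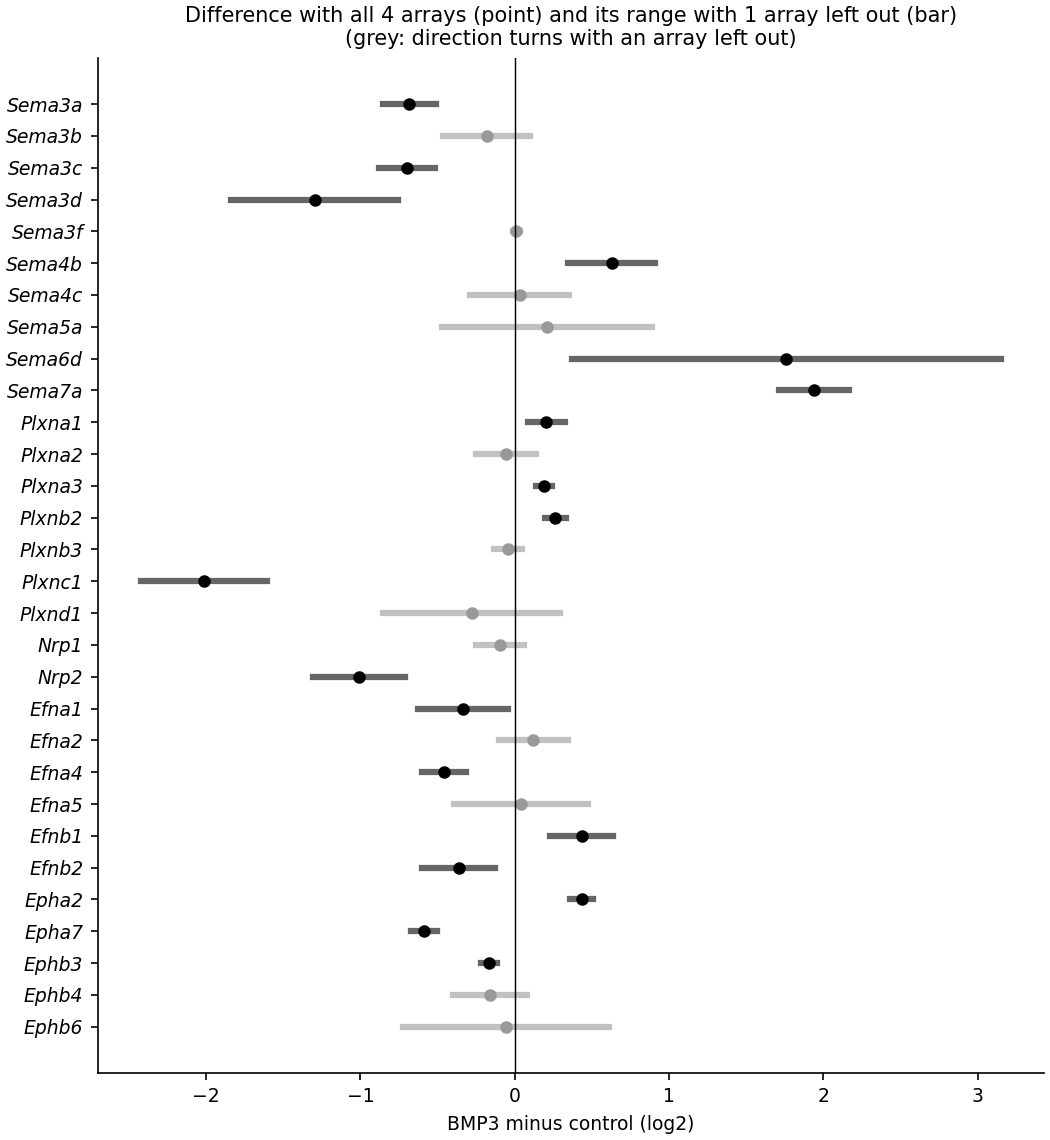
BMP3 minus control difference (log2, horizontal axis) of the 30 members averaging 6 or more with all 4 arrays (points) and its range when each array is left out in turn (bars). Grey marks the 12 members whose direction turns; Sema7a, at 1.71 to 2.17, and Plxnc1, at -2.42 to -1.60, lie farthest from 0 over their whole range.

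Other genes of the same signalling were taken from 2 lists. Of 41 measured co-receptors and cytoplasmic partners of plexins, neuropilins and Eph receptors, 0 passed the adjusted threshold. Past the looser threshold were 3 with higher values and 0 with lower values, where all genes gave 1.18% and 1.65%. Differences in the list ran from -0.81 to 1.19 with a median of 0.00. Both BMP3 arrays lay above both control arrays for 4 of its 41 genes, against 16.7% of all genes. They lay below both for 8, against 20.6% of all genes. The 3 were Rasa1, a GTPase-activating protein of Ras (difference 0.76, standard error 0.03), L1cam, a cell adhesion molecule that joins neuropilin 1 in the Sema3a receptor (1.19, standard error 0.05), and the Src-family kinase gene Fyn (0.63, standard error 0.08). Fyn had 10.73 and 10.68 in BMP3 arrays, against 10.16 and 9.98 in control arrays. The adaptor gene Nck1, at 9.18 and 9.26 in BMP3 arrays, against 9.54 and 9.51 in control arrays, had a difference of -0.31 (standard error 0.05, limma adjusted p = 0.332). Of 22 genes of the Slit, Robo, netrin, Dcc, Unc5, Flrt and repulsive guidance families, 0 passed the adjusted threshold, and 1 was past the looser threshold in each direction. Past the looser threshold, all genes gave 1.18% with higher and 1.65% with lower values. Flrt3, a membrane protein that binds Unc5 receptors, had 8.30 and 8.13 in BMP3 arrays, against 8.94 and 9.03 in control arrays (difference -0.77, standard error 0.08, limma adjusted p = 0.267). Rgma had a difference of 0.61 with a standard error of 0.14, and Slit2, a secreted ligand of Robo receptors, one of 0.41 with 0.12. Over the whole list of 41 partners, 21 differences were positive and 20 negative. The counts past the looser threshold also rested on single arrays. Without BMP3 replicate 1, 5 partners had higher values past the looser threshold. Without either control array, 1 partner and 2 genes of the other guidance families were past it with lower values. Rgma was not past it without control replicate 1 or without BMP3 replicate 1, and without BMP3 replicate 2 the other families had 2 genes past it with higher values.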

How the data were processed

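RNA of 2 BMP3-treated and 2 untreated cultures was biotin-labelled and hybridised to 4 arrays, per the labels' protocols. The authors deposited log2 values, 1 for each probe set on each array, and their scale was read from the range of the values. The submitters' processing notes name Partek, without version or step. How background was corrected, arrays normalized and probes summarised is not given in the sources used here, and a normalization that equalises arrays would hide a change of most transcripts in 1 direction. Values were used as deposited, unfiltered, leaving out 64 control probe sets. Of the 45037 others, 34945 had 1 gene symbol, 932 several and 9160 none in the platform annotation. The symbols of all 53 members matched RefSeq through Entrez identifiers.

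BMP3 and control were compared by limma 3.58.1 in R 4.3.3 (lmFit, eBayes, two-sided p). The p-values were adjusted by Benjamini and Hochberg's method over the 45037 probe sets. The fit was also run on simulated data with independent errors drawn from its own prior, which checks the calculation alone. The number of arrays limits the precision, and where cultures share a source, p-values cover only the spread between these samples. Members with a mean log2 value of at least 6 were named with values, as were up to 4 genes per list with an unadjusted p under 0.05 at that level. The members and lists were chosen with earlier results of these data known. Other settings tried were a replicate block, leaving out each array, quantile normalization, centring on medians, a filter at 6, a trended prior, the mean of a gene's probe sets and a fold of 1.3.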

Additional observations from a re-analysis of the deposited data

How the results depend on the processing

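Array number limits these results, and no count at the adjusted threshold depended on the setting except that limma with a trended, robust prior called 1 probe set, which was no member. The labels do not say what a replicate number shares. Deviations from the group mean correlated at 0.60 over 17152 probe sets, and with only 2 pairs this does not establish pairing. With the replicate block, 683 probe sets were past the looser threshold with higher and 1481 with lower values, against 364 and 901 without it. The block gave 2 members higher and 6 lower, adding Sema4b and Sema3d. With 1 array left out, probe sets past the looser threshold ran from 329 to 870 higher and from 742 to 1407 lower, and members from 1 to 3 higher and from 1 to 4 lower. A fold of 1.3 gave 2 members higher, and the mean of all probe sets of a gene gave 3 lower, without Nrp2 (-0.82) and Epha7 (-0.19). Sema7a was past the looser threshold in 11 of 11 settings, Plxnc1 in 9, Sema3a, Sema3c and Nrp2 in 8 each and Epha7 in 6. The difference of Epha7 was -0.58 under quantile normalization and -0.55 under median centring, just under 1.5-fold. These scalings moved the median over all genes by 0.02 and 0.04.

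Of the signalling partners, the block gave 1 lower, as did the filter at 6 and the trended prior, and arrays left out gave 2 to 5 higher and 0 to 1 lower. Of the other guidance families, the block gave 2 higher and 2 lower, and arrays left out 0 to 2 higher and 1 to 2 lower. The median over the 53 members was 0.0173 under quantile normalization and 0.0275 under median centring and ran from -0.0422 to 0.0144 with arrays left out, and that over members averaging 6 or more ran from -0.252 to 0.0913. The median over all 53 has no value under the filter at 6, which drops the dim members.

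Directions turned for 13 members, and the cause was not tested. With 1 array left out the differences ran from -0.46 to 0.10 for Sema3b, -0.0086 to 0.0314 for Sema3f, -0.29 to 0.35 for Sema4c, -0.47 to 0.89 for Sema5a, -0.25 to 0.14 for Plxna2, -0.132 to 0.0505 for Plxnb3, -0.85 to 0.29 for Plxnd1, -0.251 to 0.0621 for Nrp1, -0.10 to 0.34 for Efna2, -0.39 to 0.48 for Efna5, -0.402 to 0.0782 for Ephb4 and -0.72 to 0.61 for Ephb6. With the mean of a gene's probe sets, Sema3f had -0.0666, Plxna2 0.0545, Plxna3 -0.22, Nrp1 0.23 and Efna5 -0.0007. Under quantile normalization Plxnb3 had 0.022.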
